A study of Mus musculus with 19 samples.

Results

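*Notch1*, *Notch3*, *Hes1*, *Dtx1* and *Ptcra* are 5 of the 28692 genes counted in this series. The 5 were taken by name from the RNA rows and not by a measured value, although earlier results of these data were known at the time. They are described here across stages of thymocyte development, genotypes and cell types. Thymocytes of 17 mice aged 4 to 8 weeks were run on 19 lanes in 3 experiments by CITE-seq, which counts the RNA molecules and, through DNA-tagged antibodies, the surface proteins of single cells. Wild-type C57BL/6 (B6) mice were 3 from which CD5+TCRβ+ thymocytes were sorted and 2 left unsorted. CD4-fated mice were 2 AND and 2 OT-II mice, which carry transgenic T cell receptors (TCRs) specific for MHC class II, and 2 sorted MHCI-/- mice, which lack *B2m* and keep a diverse repertoire. CD8-fated mice were 2 F5 and 2 OT-I mice with transgenic TCRs specific for MHC class I and 2 sorted MHCII-/- mice with a diverse repertoire. AND and F5 mice also lacked *Rag1*, so that they could rearrange no receptor of their own, and all TCR-transgenic mice were unsorted. Wild-type, AND and F5 mice numbered 1 made up the first experiment, sorted wild-type mice 2 and 3, both MHC-deficient genotypes and AND and F5 mice 2 the second, and unsorted wild-type mice (numbered 4 and 5), OT-I and OT-II mice the third.

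Notch receptors are cut after they bind ligands of the Delta-like and Jagged families on neighbouring cells, and the freed intracellular part joins Rbpj and a Mastermind protein on DNA to switch on target genes. In the thymus, Notch1 signalling commits progenitors to the T lineage and carries them through CD4-CD8- double-negative (DN) stages up to β-selection. At that checkpoint the product of *Ptcra*, pre-TCR alpha, pairs with a newly made TCRβ chain, and cells that pass it proliferate, become CD4+CD8+ double-positive (DP) and turn Notch signalling down. DP cells that receive a signal through their TCR raise CD69 and mature into CD4 or CD8 single-positive (SP) cells.

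In the RefSeq table of GRCm38.p6, promoter windows of 250 bases before the transcript start that RefSeq gives were found for 4 of the 5 genes. *Hes1* had no entry. For *Dtx1* and *Notch1* that start lies inside the gene span printed further on, which comes from another annotation. The windows of 3 genes are shown because *Ptcra* and *Notch3* fell together at the stages described below, while *Dtx1* moved apart from them in mature cells and by genotype. Capitals mark TGGGAA, the core letters that Rbpj binds, on either strand.
Ptcra promoter, chr17:46763713-46763962, minus strand: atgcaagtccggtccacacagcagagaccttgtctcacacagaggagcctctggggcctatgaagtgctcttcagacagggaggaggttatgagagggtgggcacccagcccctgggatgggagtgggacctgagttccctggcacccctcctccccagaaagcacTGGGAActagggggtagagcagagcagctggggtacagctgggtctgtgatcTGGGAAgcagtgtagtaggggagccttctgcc
Notch3 promoter, chr17:32166891-32167140, minus strand: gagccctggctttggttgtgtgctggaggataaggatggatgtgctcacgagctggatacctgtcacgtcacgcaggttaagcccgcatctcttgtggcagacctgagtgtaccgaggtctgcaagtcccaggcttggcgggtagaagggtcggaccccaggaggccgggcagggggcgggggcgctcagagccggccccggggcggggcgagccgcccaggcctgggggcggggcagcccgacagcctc
Dtx1 promoter, chr5:120711670-120711919, minus strand: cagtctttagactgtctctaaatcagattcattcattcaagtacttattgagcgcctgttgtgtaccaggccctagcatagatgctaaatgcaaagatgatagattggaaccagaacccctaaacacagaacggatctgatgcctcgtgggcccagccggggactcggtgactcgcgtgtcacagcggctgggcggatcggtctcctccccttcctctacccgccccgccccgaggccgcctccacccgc
The *Ptcra* window held 2 matches, 84 and 32 bases before the start, and also 2 matches to CANNTG, the E-box letters bound by E proteins, none overlapping TGGGAA. The *Notch3*, *Dtx1* and *Notch1* windows held neither motif. Over the 32851 windows of that length in the table, 21.6% held TGGGAA and 66.2% held CANNTG on either strand, so that a match is common and describes letters only.

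Stages were defined by antibody counts alone, and RNA was summed over the cells of each mouse and gate. Levels are given as CPM, the unique molecular identifiers (UMIs) of a gene per 1000000 RNA UMIs of that mouse and gate. A fall in such a sum cannot tell fewer expressing cells from less RNA per cell. Of 85389 barcodes, 69268 were kept and 62044 of these fell in a gate. The 19 lanes held 9893333 to 43303999 RNA UMIs, with medians of 1480.5 to 6072 UMIs per barcode, and lanes shared at most 0.439% of the barcodes of the smaller lane. *Rag1* (975 CPM over all mice) marked CD71-CD69- DP cells and *Il2ra* (464 CPM) CD25+ DN cells, whereas *S1pr1* (307 CPM) marked CD69- CD4 SP and *Nkg7* (546 CPM) CD69- CD8 SP cells. *Top2a*, a marker of dividing cells, was at 1363 CPM in CD71+ DP cells but still at 584 CPM in the CD71-CD69- DP gate, which is therefore not free of dividing cells. Wild-type mouse 5 stood apart in *Hes1* and *Ptcra*, and AND mouse 2 in antibody depth. Values without either are given where they change an RNA result. The antibody tests were not run again without either mouse.

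*Notch1*, *Notch3*, *Hes1* and *Ptcra* had their highest median over mice in CD25+ DN cells and lower medians at each DP stage in turn. *Dtx1* was also high in CD25+ DN cells and low in DP cells, and rose again in SP cells.

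**Figure D1:**
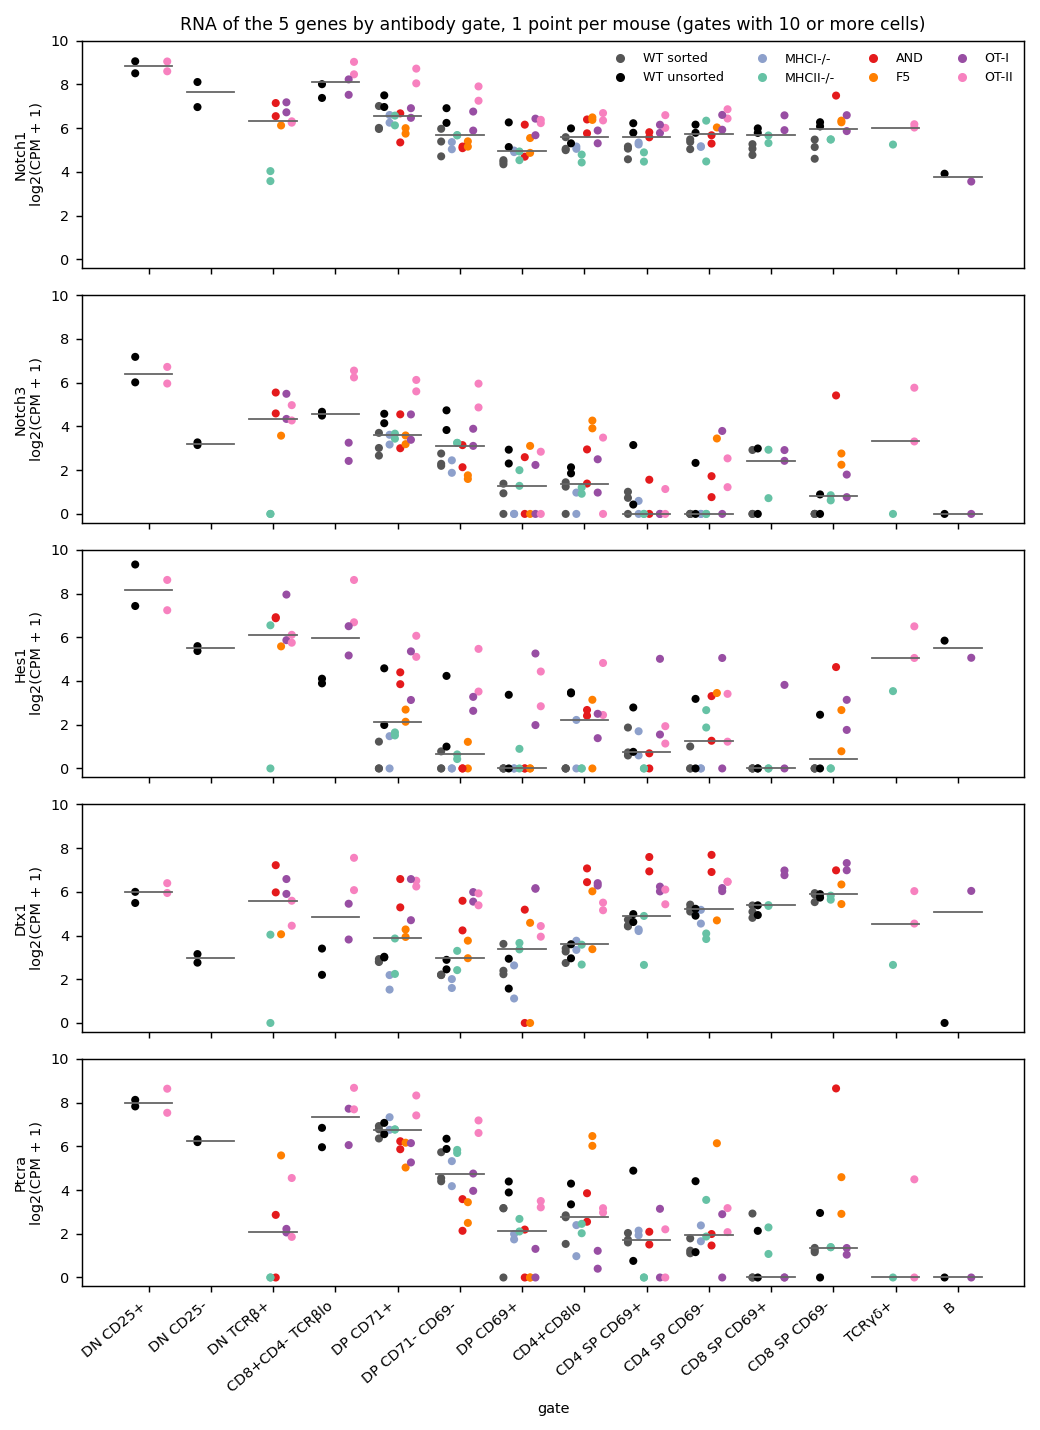
Level of each of the 5 genes (vertical axis, log2 of CPM + 1) in 14 antibody gates (horizontal axis), with 1 point per mouse coloured by genotype and a grey line at the median over mice with at least 10 cells. Medians of *Notch1* go from 459 CPM in CD25+ DN cells to 30.5 CPM in CD69+ DP cells, whereas those of *Dtx1* go from 9.31 CPM in CD69+ DP cells to 58.1 CPM in CD69- CD8 SP cells.

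Neighbouring stages of the same mice were compared with edgeR's quasi-likelihood test with the mouse as a block and Benjamini-Hochberg adjustment over all genes. From CD25+ to CD25- DN cells, all 5 genes fell, where 2.38% of genes were called and 1.61% were called lower. Between CD25+ DN and CD71+ DP cells, 4 of 5 fell, against 32.6% of genes called and 16.6% called lower. From CD71+ to CD71-CD69- DP cells, 4 of the 4 genes tested fell, against 75.3% called and 36% called lower, so that most genes changed there. From CD71-CD69- to CD69+ DP cells, 2 of 3 tested fell, against 48.4% called and 25.1% called lower. From CD69+ DP to CD69+ CD4 SP cells and to CD69+ CD8 SP cells, both genes tested rose, *Notch1* and *Dtx1*, against 36.2% and 37% called and 18.4% and 19.7% called higher. From CD69+ to CD69- cells, 1 of 2 rose in CD4 SP and in CD8 SP cells, *Dtx1* in each, against 30.4% and 11.7% called and 16.2% and 6.94% called higher.

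**Figure D2:**
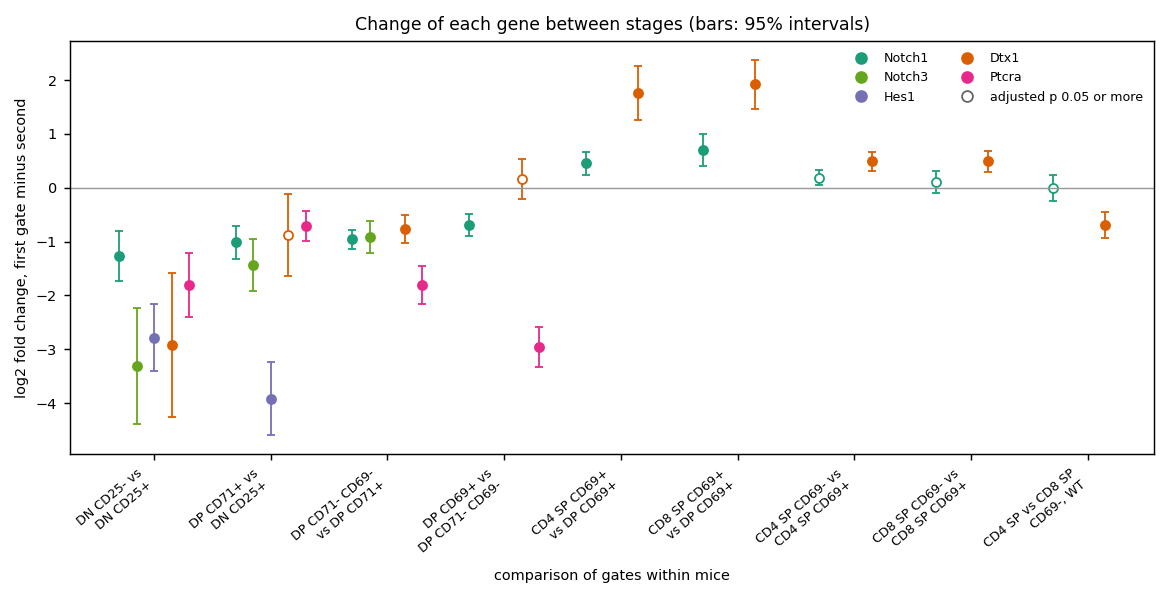
Log2 fold change of each tested gene between neighbouring stages (first-named gate over second), with bars for 95% intervals. Filled points passed an adjusted p of 0.05 in edgeR's quasi-likelihood test and open points did not. *Ptcra* shows its deepest drop at the CD69+ DP step (-2.96), and *Dtx1* is above 0 at each step into and within the SP stages.

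*Notch1* (ENSMUSG00000026923, chr2:26457903-26516663 of GRCm38, minus strand), the receptor needed for T-lineage commitment, was at 364 and 533 CPM in CD25+ DN cells of wild-type mice 4 and 5 and at 388 and 529 CPM in those of OT-II mice 1 and 2. These 4 mice of the third experiment, with 77 to 201 such cells, were the ones with at least 10. In CD71+ DP cells of the 17 mice it had a lowest, median and highest level of 39.8, 94.4 and 422 CPM, and in CD71-CD69- DP cells of 25.2, 49.9 and 239.6 CPM. The groups of values overlapped, but 17 of 17 mice were lower in the later gate (log2 fold change -0.96, SE 0.09, edgeR adjusted p = 5.4e-10). In CD69+ DP cells it was at 19.4, 30.5 and 85.6 CPM, lower in 15 of 17 mice (log2 fold change -0.69, SE 0.10, edgeR adjusted p = 2.9e-06).

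In the 4 mice with both gates, *Notch1* in CD71+ DP cells was 1.01 log2 units below CD25+ DN cells (log2 fold change -1.01, SE 0.16, edgeR adjusted p = 7.0e-05). It rose again in SP cells. Levels in CD69+ CD4 SP cells of 15 mice had a lowest, median and highest of 21.2, 46.9 and 95.8 CPM, and 10 of 15 mice were above their own CD69+ DP cells (log2 fold change 0.45, SE 0.11, edgeR adjusted p = 0.0017). The 15 mice included the CD8-fated OT-I and MHCII-/- mice. MHCII-/- mice 1 and 2 had 17 and 26 such cells, and mouse 2 gave the lowest level. In CD69+ CD8 SP cells of 9 mice the level was 26.4, 49.9 and 95.2 CPM, higher in 8 of 9 (log2 fold change 0.70, SE 0.15, edgeR adjusted p = 0.00072). Both comparisons use the same CD69+ DP cells. Between CD69+ and CD69- cells the differences of 0.19 (SE 0.07, edgeR adjusted p = 0.051) in CD4 SP and 0.11 (edgeR adjusted p = 0.66) in CD8 SP cells did not pass. The first of these passed without AND mouse 2 (edgeR adjusted p = 0.0075), MHCI-/- mouse 1 (0.037) or MHCII-/- mouse 2 (0.049), and under 4 other settings of the processing (0.046 to 0.0497). CD4 and CD8 SP CD69- cells of the 5 wild-type mice differed by -0.00 (SE 0.13, 95% interval -0.25 to 0.25), where 22.9% of genes were called and 12% were called lower.

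The antibody to Notch1 protein, which defined no gate, was compared over the 111 antibodies. It was not called from CD25+ to CD25- DN cells (log2 fold change -0.08, SE 0.30, edgeR adjusted p = 0.90, 4.5% of antibodies called) or between CD25+ DN and CD71+ DP cells (-0.19, SE 0.13, edgeR adjusted p = 0.29, 36% called), where the RNA fell. Between CD71+ and CD71-CD69- DP cells it fell (log2 fold change -0.92, SE 0.08, edgeR adjusted p = 2.3e-09), where 49.5% of antibodies were called. It fell again to CD69+ DP cells (log2 fold change -0.20, SE 0.07, edgeR adjusted p = 0.020), where 38.7% were called. Of the 6 antibodies that no thymocyte should bind, CD115 fell by 0.78 and Tim-4 by 0.52 at the first of these steps and by 0.24 and 0.18 at the second. The other 4 differed by -0.10 to 0.14 at the first step and by -0.03 to 0.16 at the second. The part of unspecific binding in these changes was not tested. In the third experiment the Notch1 antibody was at 24.7 to 51.7 per 10000 antibody UMIs in CD25+ DN cells, where the median of those 6 background antibodies was 5.26 to 9.13. It was at 26.0 to 48.2 in CD71+ DP cells of the same 4 mice, at 13.1 and 14.0 in those of the OT-I mice (background 3.13 to 8.60 over the 6 mice) and at 3.44 to 10.6 in CD69- CD4 SP cells (background 2.23 to 7.02). In the other experiments values were more varied. The 3 sorted wild-type mice had 71.9, 22.9 and 25.8 in CD69- CD4 SP cells (background 8.49, 6.01 and 6.41) against 66.2, 12.6 and 14.2 in their CD69+ DP cells. In their CD69- CD8 SP cells it was at 74.1, 27.2 and 29.8. CD69- CD4 SP cells of the MHCI-/- mice had 8.68 and 8.43 (background 4.95 and 4.30), and those of AND mouse 2 had 28.9 at a background of 27.6. From CD69+ DP to CD69+ CD4 SP and CD69+ CD8 SP cells, where the RNA rose, the antibody was not called, against 45.9% and 38.7% of antibodies called.

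**Figure D3:**
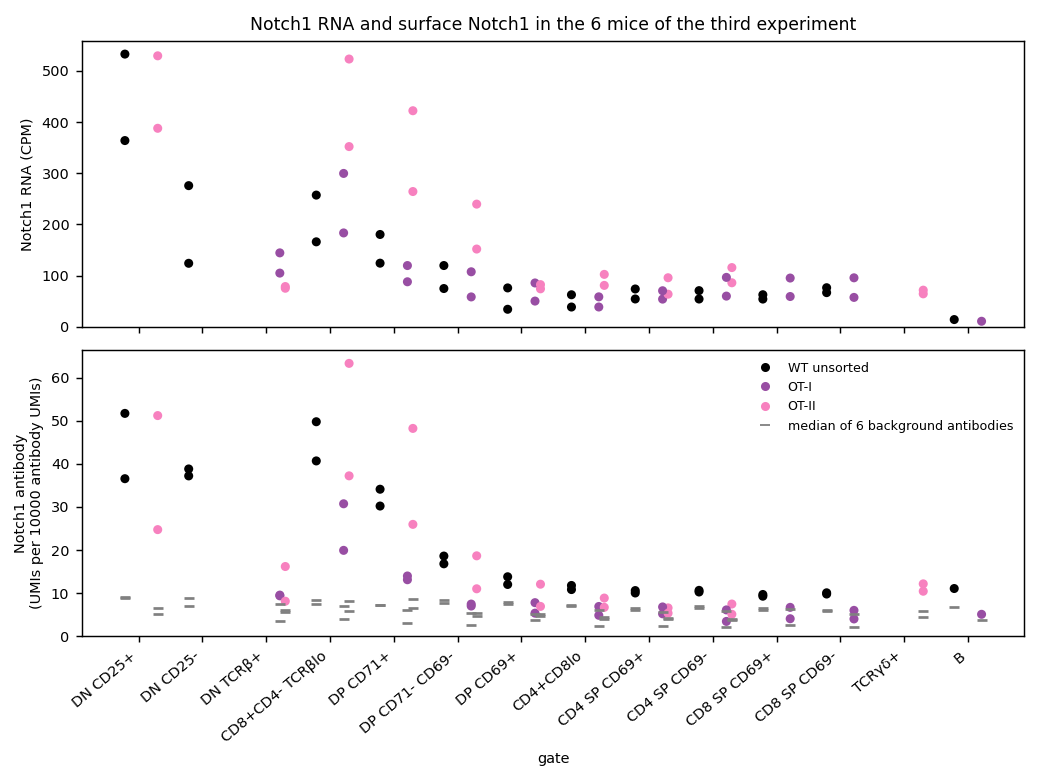
*Notch1* RNA (CPM) and Notch1 antibody (UMIs per 10000 antibody UMIs) by gate in the 6 mice of the third experiment, 1 point per mouse, with grey dashes at the median of 6 background antibodies. Antibody values of CD25+ DN cells, 24.7 to 51.7, lie above all background dashes, whereas those of CD69- CD4 SP cells, 3.44 to 10.6, partly overlap theirs, 2.23 to 7.02.

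*Notch3* (ENSMUSG00000038146, chr17:32120820-32166852, minus strand), a second receptor that is itself a target of Notch1 and is linked with early T cells, was at 63.7 and 144 CPM in CD25+ DN cells of wild-type mice 4 and 5 and at 61.4 and 105 CPM in OT-II mice 1 and 2. The same mice had 8.65 and 7.88 CPM (wild-type 4 and 5) in CD25- DN cells, from 13 and 11 cells. CD71+ DP cells of all 17 mice had a lowest, median and highest of 5.36, 11.3 and 68.9 CPM and CD71-CD69- DP cells 2.03, 7.64 and 61.2 CPM. It fell from CD25+ DN to CD71+ DP cells (log2 fold change -1.43, SE 0.25, edgeR adjusted p = 0.00018) and on to CD71-CD69- DP cells, where 16 of 17 mice were lower (log2 fold change -0.91, SE 0.15, edgeR adjusted p = 9.3e-06). With a median of 1.44 CPM in CD69+ DP cells it was too low to be tested beyond that stage.

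*Hes1* (ENSMUSG00000022528, chr16:30064384-30067796, plus strand), a repressor and the classical Notch target, was at 171 and 641 CPM in CD25+ DN cells of wild-type mice 4 and 5 and at 149.7 and 393 CPM in OT-II mice 1 and 2. CD71+ DP cells of those 4 mice had 2.96 to 66.04 CPM, below every CD25+ DN value. This was the steepest fall of the 5 genes between those gates (log2 fold change -3.92, SE 0.35, edgeR adjusted p = 1.0e-07). In CD71-CD69- DP cells of the 17 mice the median was 0.559 CPM, and the highest 43.3 CPM, in OT-II mouse 2. *Hes1* failed the low-count filter in the stage comparisons from there on. DN cells with surface TCRβ had *Hes1* at a median of 68.1 CPM over 9 mice, at 57.4 and 247 CPM in OT-I mice and 116 and 119.7 CPM in AND mice. That gate also held markers of other cells. The sum of 4 γδ T cell markers ran from 286 to 3673 CPM over mice and that of 3 erythroid markers reached 2853 CPM.

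The lanes of the third experiment were split here into 2 sets by their lane numbers, and no label says that these were run apart. Mouse 5 of the wild type and mouse 2 of OT-I and of OT-II made up the set with fewer UMIs per barcode (lane medians of 1480.5 to 3036, against 2746.5 to 6072). In the DP gates *Hes1* was higher in that set within each genotype, whereas in the few TCRγδ+ cells OT-II mouse 1 was higher (89.4 against 32.2 CPM). In CD71-CD69- DP cells the wild-type mice had 1.00 and 17.8 CPM, the OT-I mice 5.21 and 8.67 CPM and the OT-II mice 10.4 and 43.3 CPM, mice of the first set given first. The part of the lane set in this was not tested, and with 1 mouse of each genotype per set it cannot be told apart from the mice themselves.

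*Dtx1* (ENSMUSG00000029603, chr5:120680202-120711927, minus strand) encodes Deltex1, a ubiquitin ligase that binds Notch and is also a Notch target. In CD25+ DN cells it was at 43.9 and 62.8 CPM in wild-type mice 4 and 5 and at 60.6 and 83.1 CPM in OT-II mice 1 and 2. From there to CD71+ DP cells 3 of 4 mice were lower and the difference did not pass (log2 fold change -0.87, SE 0.39, edgeR adjusted p = 0.094). Without OT-II mouse 1, the one that was higher, it was -2.002 (edgeR adjusted p = 7.7e-05), and the difference also passed with raised antibody thresholds (0.013) and with no filter on low counts (2.3e-06). Over 17 mice it fell from CD71+ DP cells, at 1.88, 13.6 and 94.8 CPM (lowest, median and highest), to CD71-CD69- DP cells, at 2.03, 6.79 and 62.4 CPM, in 14 of 17 mice (log2 fold change -0.76, SE 0.13, edgeR adjusted p = 1.5e-05). Between CD71-CD69- and CD69+ DP cells the difference was 0.16 (SE 0.19, 95% interval -0.21 to 0.53, edgeR adjusted p = 0.52).

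In SP cells *Dtx1* rose at each step tested. CD69+ CD4 SP cells of 15 mice had a lowest, median and highest of 5.30, 28.7 and 192 CPM against 0, 9.31 and 70.7 CPM in their CD69+ DP cells, higher in 13 of 15 mice (log2 fold change 1.76, SE 0.26, edgeR adjusted p = 3.7e-06). The CD8-fated OT-I and MHCII-/- mice were among these 15, and MHCII-/- mouse 2 gave the lowest CD69+ CD4 SP level. CD69+ CD8 SP cells of 9 mice had 27.0, 40.5 and 125 CPM, higher in 9 of 9 (log2 fold change 1.92, SE 0.23, edgeR adjusted p = 5.7e-07). A smaller rise followed to CD69- cells, to 36.8 CPM in CD4 SP cells (median, 12 of 15 mice higher, log2 fold change 0.49, SE 0.09, edgeR adjusted p = 2.9e-05) and to 57.8 CPM in CD8 SP cells (9 of 9 higher, log2 fold change 0.50, SE 0.10, edgeR adjusted p = 0.00037). In the 5 wild-type mice CD69- CD8 SP cells, at 45.1, 57.8 and 60.3 CPM, lay above CD69- CD4 SP cells, at 29.0, 36.3 and 41.6 CPM. These ranges did not overlap (log2 fold change of CD4 over CD8 SP -0.69, SE 0.12, edgeR adjusted p = 8.8e-05). In that comparison 22.9% of genes were called and 12% were called lower.

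*Ptcra* (ENSMUSG00000036858, chr17:46755663-46763712, minus strand) was at 278 and 226 CPM in CD25+ DN cells of wild-type mice 4 and 5 and at 396 and 184 CPM in OT-II mice 1 and 2. It fell at every step at which it was tested. In CD71+ DP cells of the 17 mice it was at 31.7, 107 and 319 CPM (lowest, median and highest), in CD71-CD69- DP cells at 3.39, 26.0 and 144 CPM and in CD69+ DP cells at 0, 3.30 and 19.98 CPM. The fall from the first to the second of these gates was seen in 17 of 17 mice (log2 fold change -1.80, SE 0.18, edgeR adjusted p = 3.6e-09), and that to the third in 16 of 17 (log2 fold change -2.96, SE 0.19, edgeR adjusted p = 1.4e-13). From CD25+ DN to CD71+ DP cells the fall was smaller (log2 fold change -0.71, SE 0.14, edgeR adjusted p = 0.00088). In SP cells wild-type mouse 5 had 28.6 CPM in CD69+ and 20.2 CPM in CD69- CD4 SP cells, where the other wild-type mice had at most 3.101 CPM. Counts there were low: mouse 5 had 388 and 177 cells, and all mice together had 104 and 98 *Ptcra* UMIs in these gates.

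Within DN TCRβ- cells, those without CD25 had lower levels of all 5 genes in both wild-type mice that could be compared. *Hes1* was at 40.4 and 47.3 CPM against 171 and 641 CPM (log2 fold change -2.78, SE 0.32, edgeR adjusted p = 8.2e-15) and *Notch3* showed the largest fall (-3.31, SE 0.55, edgeR adjusted p = 8.3e-07). *Dtx1* fell by 2.92 (SE 0.68, edgeR adjusted p = 0.0019), *Ptcra* by 1.80 (SE 0.30, edgeR adjusted p = 8.3e-07) and *Notch1* by 1.27 (SE 0.24, edgeR adjusted p = 2.9e-05) on the log2 scale. With 13 and 11 cells in the CD25- gate these calls are weak. DESeq2 gave adjusted p of 0.11 for *Notch1*, 0.098 for *Notch3* and 0.064 for *Ptcra*, and with called doublets kept edgeR gave 0.052 for *Notch1* and 0.34 for *Dtx1*. With raised antibody thresholds only *Ptcra* passed.

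In single cells thinned to 1500 UMIs, the share with at least 1 UMI was again higher in CD25+ DN than in CD71-CD69- DP cells for each gene. Cells with fewer than 1500 UMIs were left out, so the thinned shares describe the deeper cells of each gate. The 2 lanes of wild-type mouse 5 had medians of 1533 and 1480.5 UMIs per barcode. In CD25+ DN cells the medians over mice were 53.9% for *Notch1*, 35.7% for *Ptcra*, 33.2% for *Hes1*, 15.5% for *Notch3* and 10.9% for *Dtx1*, from 97.6%, 73.1%, 78.5%, 56.1% and 46.2% before thinning. In CD71-CD69- DP cells they were 6.13% for *Notch1*, 2.79% for *Ptcra*, 0.957% for *Dtx1*, 0.798% for *Notch3* and 0.060% for *Hes1*. In CD69- CD8 SP cells *Dtx1* was found in 7.29%. B cells, which should lack *Ptcra*, showed *Notch1*, *Notch3* and *Ptcra* in 0 of 36 thinned cells, which allows a share of up to 8.33% of cells with a UMI by counting error alone and sets no limit on cells that express the gene. Before thinning, the B cells of each of the 2 mice held 1 *Notch1* UMI (14.1 and 10.8 CPM).

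Among rarer cell types, CD8+CD4- cells with low TCRβ, a gate that holds cells on the way from DN to DP, had *Notch1* at 166, 278 and 523 CPM (lowest, median and highest of 6 mice) and *Ptcra* at 61.2, 159.7 and 407 CPM, between the CD25+ DN and CD71+ DP medians for *Notch1*. The sum of 3 erythroid markers in that gate had a median of 10.0 CPM over mice and reached 9478.5 CPM in 1 of them. TCRγδ+ cells of 3 mice had *Notch1* at 37.1 to 71.5 CPM and *Ptcra* at 0 in 2 of the 3. In B cells of 2 mice, marked by *Cd79a* at 4038 CPM, *Hes1* was at 32.4 and 56.5 CPM while *Notch3* and *Ptcra* had no UMI. CD25+ CD4 SP cells of 4 mice, 10 to 23 cells each, are given no cell type name, since the gate was mixed between mice: the sum of 4 DP markers ran from 25.5 to 2221 CPM and that of 3 regulatory T cell markers from 157 to 1864 CPM. Medians there were 417 CPM for *Notch1*, 83.9 for *Notch3*, 146 for *Hes1*, 149 for *Dtx1* and 203 for *Ptcra*. That of *Dtx1* was the highest of the 12 gates with at least 4 mice. MHCI-/- mouse 1 was the lowest for each gene, at 0 for *Notch3*, *Hes1* and *Ptcra*. When the 12 gates with at least 4 mice were put in order of their medians, none of the 11 pairs of neighbours was apart in range for any of the 5 genes.

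CD4-fated and CD8-fated mice were compared in the same gates, 6 mice each, with the family of genotypes (AND with F5, OT-II with OT-I, MHCI-/- with MHCII-/-) as a covariate. Of the genes that could be tested none passed. *Hes1* was too low to be tested in any of these comparisons, *Notch3* and *Ptcra* were tested in CD71-CD69- DP cells only, and *Dtx1* was not tested in CD69+ DP cells. In CD71-CD69- DP cells, where 0.0105% of genes were called (1 gene, and 6 with the replicate numbers as a block), *Notch1* differed by 0.21 (SE 0.27), *Notch3* by 0.68 (SE 0.50), *Dtx1* by 0.15 (SE 0.42) and *Ptcra* by 0.45 (SE 0.56) on the log2 scale, CD4-fated over CD8-fated. In CD69+ DP cells *Notch1* differed by 0.15 (SE 0.21), where 1.09% of genes were called. CD127 could not be gated, so this gate pools CD127- and CD127+ cells, and their shares by fate were not measured. In the CD4+CD8lo gate, set for the intermediate that both lineages pass through, *Notch1* differed by 0.36 (SE 0.24) and *Dtx1* by 0.28 (SE 0.46), where 0.167% were called. That gate was mixed between mice: the sum of 4 markers of signaled cells ran from 106 to 4125 CPM and that of 3 cycling markers from 10.4 to 1912 CPM. The F5 mice had 11 and 43 cells there, and F5 mouse 2 had the highest *Ptcra* of the gate (87.5 CPM). Without F5 mouse 2 *Dtx1* differed by -0.28. Between CD69- CD4 SP cells of CD4-fated and CD69- CD8 SP cells of CD8-fated mice, *Dtx1* differed by -0.01 (SE 0.35, 95% interval -0.70 to 0.67, edgeR adjusted p = 0.99), where 16.6% of genes were called. That interval reaches the difference of -0.69 seen between wild-type CD4 and CD8 SP cells.

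*Dtx1* values also lay apart along another line, between mice with a transgenic TCR and the rest. In CD71-CD69- DP cells the AND mice had *Dtx1* at 47.1 and 17.8 CPM, the F5 mice at 12.6 and 6.79 CPM, the OT-I mice at 45.8 and 62.4 CPM and the OT-II mice at 40.7 and 59.8 CPM. The 5 wild-type mice had 3.56 to 6.40 CPM, the MHCI-/- mice 2.03 and 3.02 CPM and the MHCII-/- mice 4.34 and 8.84 CPM. All but F5 mouse 2 of the 8 transgenic mice were above the highest of the other 9.

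In the planned comparison of the 4 OT-I and OT-II mice with the 2 wild-type mice of the third experiment, all unsorted, no gene was called in any gate, so 0% of genes. *Dtx1* was higher in all 4 OT mice than in both wild-type mice in CD71+ DP cells (log2 fold change 3.34, SE 0.57, edgeR adjusted p = 1), CD71-CD69- DP cells (3.37, SE 0.35, edgeR adjusted p = 0.092) and CD69+ DP cells (3.76, SE 0.81, edgeR adjusted p = 0.35). DESeq2 called it in each of these gates, with adjusted p of 4e-05, 1.9e-16 and 0.03. Without OT-I mouse 1 edgeR gave 0.021 in CD71+ DP cells, and with the lane set as a covariate it gave 0.0022 in CD71-CD69- and 0.0032 in CD69+ DP cells. In DN TCRβ- cells the difference was 0.80 (SE 0.34, edgeR adjusted p = 1). Without adjustment 59 of 8672, 157 of 8494, 992 of 11098 and 242 of 7041 tested genes had an edgeR p under 0.05. These are for DN TCRβ-, CD71+ DP, CD71-CD69- DP and CD69+ DP cells in turn. Only in CD71-CD69- DP cells was that share above 0.05. DESeq2 called 0, 8, 220 and 4 genes in the same gates.

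After these values were seen, all 8 transgenic mice were compared with the 9 wild-type and MHC-deficient mice with the experiment as a covariate. Having been prompted by these values, the tests describe them and are no independent support, and the results below share mice with each other and with the OT comparison. In CD71+ DP cells *Dtx1* was at 14.3, 56.3 and 94.8 CPM (lowest, median and highest) in transgenic mice and at 1.88, 6.02 and 13.6 CPM in the others, with no overlap (log2 fold change 2.71, SE 0.44, edgeR adjusted p = 0.0050), where 0.991% of genes were called and 0.771% were called higher. In CD71-CD69- DP cells it was higher by 2.48 (SE 0.43, edgeR adjusted p = 0.0020), where 10.1% were called and 4.02% were called higher. Within experiments, CD71-CD69- DP values of transgenic against other mice were 12.6 and 47.1 against 3.64 CPM in the first, 6.79 and 17.8 against 2.03 to 8.84 CPM in the second and 40.7 to 62.4 against 4.47 and 6.40 CPM in the third. In the first and second experiments the transgenic mice were the unsorted ones, and all of them (AND and F5) lacked *Rag1*, so the transgene can be told apart neither from the sort nor from the loss of *Rag1* there. In the third all mice were unsorted and none was labelled as lacking *Rag1*.

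In CD69- CD4 SP cells AND and OT-II mice had *Dtx1* at 86.7, 103 and 205 CPM (lowest, median and highest of 4) against 22.4, 35.1 and 41.6 CPM in 7 wild-type and MHCI-/- mice. The ranges did not overlap (log2 fold change 1.83, SE 0.16, edgeR adjusted p = 0.00015), where 2.04% of genes were called and 0.388% were called higher. In CD69- CD8 SP cells OT-I mice had 126 and 158 CPM and F5 mice 79.6 and 42.4 CPM, against 45.1, 55.6 and 60.3 CPM in 7 wild-type and MHCII-/- mice, and the difference did not pass (log2 fold change 0.56, SE 0.29, edgeR adjusted p = 0.53), where 2.69% of genes were called. Without F5 mouse 2 it was 1.12 (edgeR adjusted p = 0.037). In CD69+ DP cells, where 0.751% were called, *Dtx1* failed the low-count filter and *Notch1* differed by 0.62 (edgeR adjusted p = 0.49). *Notch1* was called in none of the 5 gates and *Notch3* and *Ptcra* in neither of the CD71+ and CD71-CD69- DP gates, the only ones where they could be tested. *Hes1* could not be tested in any. *Ptcra* in CD71-CD69- DP cells was not called (log2 fold change -1.14, SE 0.56, edgeR adjusted p = 0.24), where the AND mice had 10.99 and 3.39 CPM and the F5 mice 4.64 and 9.88 CPM. The OT-I mice had 14.6 and 26.0 CPM, and the 9 wild-type and MHC-deficient mice 17.1 to 80.3 CPM. The OT-II mice, at 144 and 96.7 CPM, had the highest levels of all 17 mice there, so the ranges overlapped, and over the alternatives run this difference lay between -1.54 and -0.10.

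**Figure D4:**
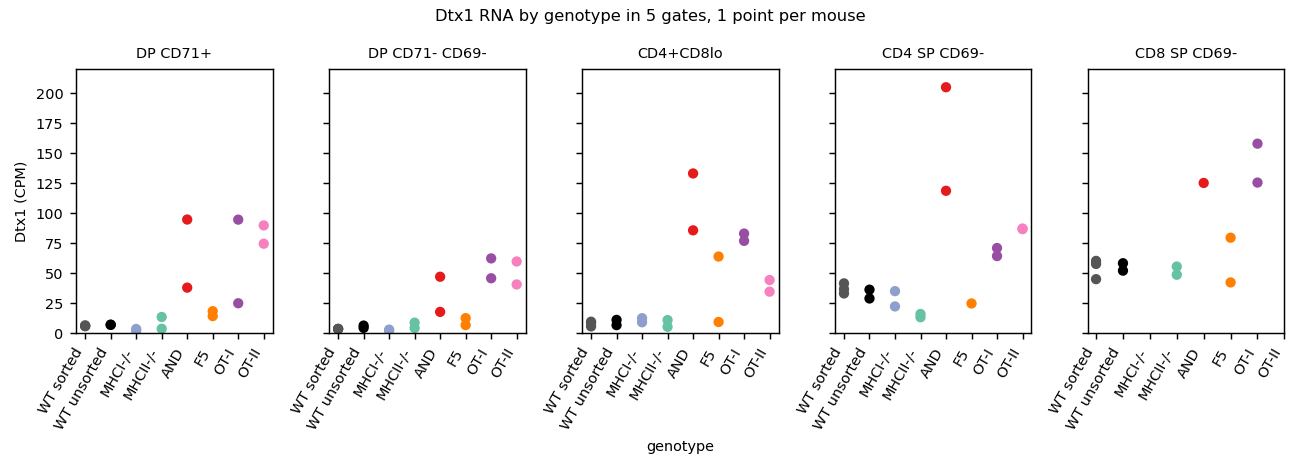
*Dtx1* level (CPM) by genotype group in 5 gates, 1 point per mouse with at least 10 cells. In CD71+ DP cells the 8 TCR-transgenic mice lie at 14.3 to 94.8 CPM and the other 9 at 1.88 to 13.6 CPM, and in CD69- CD4 SP cells the AND mice reach 205 CPM.

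Marker sums of other cell types in these gates are given beside the *Dtx1* values, and were not tested. The summed level of the 4 γδ T cell markers (*Trdc*, *Sox13*, *Trgv2* and *Maf*) in CD71-CD69- DP cells was 149.6 to 609.5 CPM in transgenic and 68.2 to 170.3 CPM in the other mice, with overlap. In CD69- CD8 SP cells it was 322.8 to 447.5 CPM in F5 and OT-I mice against 4.8 to 71.8 CPM in wild-type and MHCII-/- mice, and in CD69- CD4 SP cells 58.8 to 343.2 CPM in AND and OT-II mice against 17.2 to 72.6 CPM in wild-type and MHCI-/- mice. Over all transgenic against all other mice, the 4 mature markers were at 111.3 to 784.3 against 109.8 to 234.4 CPM in CD71-CD69- DP cells, and the 4 DP markers, *Rag1* included, at 218.1 to 2189 against 1089.3 to 4606.4 CPM, where 4 of the 8 transgenic mice were *Rag1*-deficient. In CD71+ DP cells the 4 γδ markers were at 117.7 to 588.0 CPM (median 399.9) in transgenic and 212.3 to 326.0 CPM (median 277.4) in other mice, the 4 mature markers at 60.6 to 421.6 CPM (median 182.6) against 43.9 to 136.9 CPM (median 62.9) and the 4 markers of signaled cells at 28.7 to 495.1 CPM (median 246.5) against 43.7 to 189.9 CPM (median 65.8). The 3 erythroid markers in that gate reached 14047.1 CPM in transgenic and 463.3 CPM in other mice, while the 3 cycling markers were at 685.5 to 3873.1 against 2494.8 to 5201.5 CPM. Their part in the *Dtx1* difference was not tested.

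OT-II mice had the highest *Notch1* of all mice in these 2 DP gates, at 264 and 422 CPM in CD71+ and 152 and 239.6 CPM in CD71-CD69- DP cells. The corresponding medians over 17 mice were 94.4 and 49.9 CPM. In CD69+ DP cells the highest level, 85.6 CPM, was in OT-I mouse 2. This contrast was not tested on its own.

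Of the 46 genes of a Notch pathway list that holds the 5 members, 32 were tested between CD25+ DN and CD71+ DP cells, of which 15 fell and 3 rose, against 16.6% of all genes lower (11 of the 15 are not among the 5; median log2 fold change -0.57, against 0.01 over all genes). *Lfng*, a glycosyltransferase that tunes ligand binding, fell by 4.28 on the log2 scale and *Il2ra*, a Notch target that encodes the CD25 used in the gate, by 4.08. From CD71+ to CD71-CD69- DP cells, 19 of 30 rose and 5 fell, where 75.3% of all genes were called and 36% were lower (median 0.32, against 0.04). There the transcription complex genes rose in 4 of 4 (*Maml2* by 1.82) and the receptor-cleavage genes in 7 of 8 tested, while both receptors among the 5 fell and *Myc*, a target, fell by 1.98. From CD71-CD69- to CD69+ DP cells 5 of 30 rose, with *Lfng* at 1.86 and *Myc* at 1.66, and 6 fell, where 48.4% of all genes were called. *Lfng* rose further into CD69+ CD4 SP (2.34) and CD69+ CD8 SP cells (1.87), where 8 of 27 and 4 of 23 list genes rose, against 18.4% and 19.7% of all genes, and 2 and 3 fell.

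Of 16 genes that form or regulate the pre-TCR and its signal, 14 rose and 1 fell from CD71+ to CD71-CD69- DP cells, where 75.3% of all genes were called, with the kinase *Fyn* at 1.19 and the adaptor *Lcp2* at 0.89. From there to CD69+ DP cells, where 48.4% of all genes were called, 7 rose and 9 fell, among them *Syk*, a kinase of the pre-TCR signal (-1.83), *Tcf12*, an E protein (-1.09), and *Myb* (-0.83), both regulators of *Ptcra*. In CD69+ SP cells *Myb* was lower again, by 2.46 (CD4) and 1.38 (CD8) on the log2 scale. Between CD25+ DN and CD71+ DP cells 5 of the 16 rose and 3 fell, where 32.6% of all genes were called. Of the 4 regulators of *Ptcra* in the list, 1 rose and 1 fell there. The one that rose was *Id3*, an inhibitor of E proteins, by 1.17.

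Profiles over 16 gates were compared as Pearson correlations of the mean log2(CPM + 1) over mice, among 11998 genes, as a description, since the gates share mice, libraries and depth. *Ptcra* was most like *Fstl3* (0.98), *Degs2* (0.98) and *Ccdc18* (0.96), and among the genes most like *Notch3* were *Idh2* (0.97) and *Fgd1* (0.93). *Notch1* was most like *AI314180* (0.94), *Pomt1* (0.93) and *Suv39h1* (0.93). Among the nearest to *Hes1* were *Ybx3* (0.89) and *AU020206* (0.87), and nearest to *Dtx1* were *Traf3ip1* (0.89), *Ybey* (0.88) and *Tfap4* (0.87). Among the 5 genes the profiles of *Notch1* and *Ptcra* had 0.91, *Notch1* and *Notch3* 0.90 and *Notch3* and *Ptcra* 0.87, whereas *Hes1* and *Dtx1* had 0.06.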

How the data were processed

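The authors aligned reads to mm10 (GRCm38) with Cell Ranger 3.1.0 and deposited raw UMI counts per gene and antibody for each lane of a 10x 3' kit, with no normalization. These counts were used as deposited, and the 2 lanes of wild-type mice 4 and 5 were summed. Pooled matrices that repeat the lanes were not used. Barcodes with at least 200 genes, at most 15% mitochondrial UMIs, 1000 to 10000 antibody UMIs and at least 70 antibodies were kept, and called doublets (2786 of 72054) were removed by a neighbour score. Antibody thresholds were set at the dip between modes, without RNA. A mouse entered a gate with at least 10 cells. Sums per mouse and gate were tested with edgeR 4.0.16 (quasi-likelihood, TMM, filterByExpr, Benjamini-Hochberg over all genes tested, R 4.3.3), with DESeq2 1.42.0 as an alternative, after a test on simulated data. Stage comparisons blocked on the mouse, and fate comparisons took the family as covariate. Comparisons of transgenic with other mice across the experiments took the experiment. Those of OT mice with unsorted wild-type mice had no covariate. Mice are separate animals. Levels are CPM. Limits for a count of 0 cover counting error only. Intervals of log2 fold changes come from the SE of edgeR's test, which includes the spread between mice. The Notch1 antibody was tested likewise over 111 antibodies.

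Where CD4-fated and CD8-fated mice of a family shared replicate numbers, the deviations of same-numbered CD71-CD69- DP samples correlated at 0.455 (AND with F5), 0.259 (MHC-deficient) and 0.706 (OT), so same-numbered samples deviated together there. The numbers follow the labels, and they went with the experiment in AND and F5 mice and with the lane set in OT mice. The main fate comparisons fitted neither of these. The genes, the lists and the rule of naming up to 3 list genes per comparison with the largest called change were chosen with earlier results of these data known. Of the genes with the most similar profiles, 2 are not reported here.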

Additional observations from a re-analysis of the deposited data

Results flagged for a closer look

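Dixon's test was applied to 60 groups of 4 to 10 samples, and 17 held a sample far from the others. A group was a gene in a gate, over the wild-type mice or, where a gate had 10 or fewer, over all mice. The rate of about 1 in 20 given by chance applies to normally distributed values in separate groups. Here the same mice recur across genes and gates and some counts are low, so the 17 cannot be compared with that rate. Wild-type mouse 5 accounted for 11: *Notch1* in CD69+ DP cells (75.9 CPM), *Notch3* in CD69+ and CD69- CD4 SP cells (7.88 and 4.04 CPM), *Hes1* in CD71+ DP (22.9 CPM), CD71-CD69- DP (17.8 CPM), CD69+ DP (9.33 CPM), CD69- CD4 SP (8.07 CPM) and CD69- CD8 SP cells (4.49 CPM), and *Ptcra* in CD69+ CD4 SP (28.6 CPM), CD69- CD4 SP (20.2 CPM) and CD69- CD8 SP cells (6.73 CPM). This mouse is in the lane set of the third experiment with fewer UMIs per barcode, whose part was not tested. Several of these values rest on few molecules. All mice together had 24 and 21 *Notch3* UMIs in CD69+ and CD69- CD4 SP cells and 30 *Hes1* UMIs in CD69+ DP cells. Wild-type mouse 4 had *Notch3* at 0.856 CPM in CD69- CD8 SP cells. The rest stood apart from mice of all genotypes, not from their own. OT-I mouse 2 had *Hes1* at 13.1 CPM in CD69+ CD8 SP and at 247 CPM in TCRβ+ DN cells. OT-II mouse 2 had *Hes1* at 392 CPM and *Dtx1* at 187 CPM in CD8+CD4- TCRβ low cells. F5 mouse 2 had *Ptcra* at 46.9 CPM in TCRβ+ DN cells.

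Of 309 pairs of genotype groups under the same stage comparison, 14 had every mouse of one group move one way and every mouse of the other the opposite way. These differences were not tested. They concerned *Dtx1* between CD71-CD69- and CD69+ DP cells and *Notch1* between CD69+ and CD69- CD4 SP cells. For *Dtx1* the median change in CPM differed by -18.7 for AND minus MHCII-/-, -30.8 for AND minus OT-I, -15.5 for AND minus sorted wild-type, 36.6 for MHCII-/- minus OT-II, 48.7 for OT-I minus OT-II and -33.4 for OT-II minus sorted wild-type mice. For *Notch1* it differed by -29.5 for MHCI-/- minus MHCII-/-, -19.7 for MHCI-/- minus OT-I, -24.8 for MHCI-/- minus OT-II and -12.7 for MHCI-/- minus sorted wild-type mice. Against unsorted wild-type mice it differed by 27.5 for MHCII-/-, 17.6 for OT-I, 22.7 for OT-II and 10.7 for sorted wild-type mice. Each of these groups held 2 or 3 mice, and how many such pairs chance would give was not worked out. Changes of single mice ran in size from 0.0548 CPM (*Dtx1*, sorted wild-type) to 51.5 CPM (*Notch1*, MHCII-/-). The smallest *Notch1* changes were 0.107 CPM in MHCII-/- and -0.0615 CPM in unsorted wild-type mice. MHCII-/- mice had 17 to 26 cells in these CD4 SP gates.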

How the results depend on the processing

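Of 25 RNA results of the 5 genes that passed the test, 10 passed under every alternative run, as did the 2 of the Notch1 antibody, which had 2 alternatives each. Leaving out the mouse block alone ended the calls of *Notch1*, *Notch3* and *Ptcra* in CD71+ DP against CD25+ DN, *Dtx1* and *Notch3* from CD71+ to CD71-CD69- DP, *Notch1* into CD69+ CD4 and CD8 SP, and *Dtx1* from CD69+ to CD69- CD4 and CD8 SP and in wild-type CD4 against CD8 SP cells. The 5 of CD25- against CD25+ DN cells ended under that and 1 or more other settings. *Dtx1* in transgenic against other mice in CD71+ DP, CD71-CD69- DP and CD69- CD4 SP cells was among the 10, in comparisons chosen after the values were seen, with adjusted p up to 0.0337, 0.0108 and 0.0104. The causes of the changes below were not tested. All counts below are of genes called. With the mouse block left out, the CD25- against CD25+ DN comparison went from 145 to 0 genes, CD71+ DP against CD25+ DN from 2822 to 820, CD69+ against CD71-CD69- DP from 4357 to 2130, the steps into CD69+ CD4 SP and CD8 SP cells from 2648 to 1281 and from 2351 to 993, those to CD69- cells from 2552 to 462 (CD4 SP) and from 767 to 60 (CD8 SP), and wild-type CD4 against CD8 SP cells from 1889 to 266. With the replicate numbers as a block, the fate comparisons had 6 genes (from 1) in CD71-CD69- DP, 165 (from 54) in CD69+ DP and 5 (from 13) in CD4+CD8lo cells. Only in the first of these did same-numbered mice deviate together in every family (the other correlations ran from -0.00707 to 0.585). Without the family covariate these 3 gates had 0, 8 and 3 genes, and mature SP cells 885 (from 1527).

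DESeq2 called 19 genes in CD25- against CD25+ DN, 1841 in CD71+ DP against CD25+ DN and 840 in wild-type CD4 against CD8 SP cells. It called 10 in CD71-CD69- DP and 105 in CD4+CD8lo cells by fate, 8, 220 and 4 (from 0) for OT mice in CD71+, CD71-CD69- and CD69+ DP cells, and 184 (from 81), 84 (from 50) and 339 (from 184) for transgenic mice in CD71+ DP, CD69+ DP and CD69- CD4 SP cells. With no filter on low counts the fate comparisons had 217, 263 and 410 genes, the OT comparisons 27 in DN TCRβ- and 68, 89 and 77 in the DP gates, and the transgenic comparisons 553 in CD71+ DP, 160 in CD69+ DP, 651 in CD69- CD4 SP and 602 (from 232) in CD69- CD8 SP cells. With doublets kept, 28 genes were called in CD25- against CD25+ DN cells and 291 for transgenic mice in CD69- CD4 SP cells. Raised thresholds gave 32 in CD25- against CD25+ DN, 2 by fate in CD71-CD69- DP, 4 for OT mice in CD71-CD69- DP and 21 for transgenic mice in CD69+ DP cells. Lowered thresholds gave 2 and 1 by fate in CD71-CD69- DP and CD4+CD8lo cells and 136 and 81 for transgenic mice in CD71+ and CD69+ DP cells. At least 30 cells gave 7 by fate in CD4+CD8lo and 52 for transgenic mice in CD71+ DP cells. The lane set as a covariate gave 1, 174 and 113 for OT mice in DN TCRβ-, CD71-CD69- DP and CD69+ DP cells. Without the experiment covariate 599 (from 1003) and 145 genes were called for transgenic mice in CD71-CD69- DP and CD69- CD8 SP cells. Thinning to 1000 UMIs put *Notch1* in 35.5% of CD25+ DN cells.

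Leaving out 1 mouse at a time gave 1754 to 2830 genes for CD71+ DP against CD25+ DN, 6623 to 6923 and 3796 to 4402 for the next DP steps, 2269 to 2880 and 1850 to 2411 into CD4 and CD8 SP, 2101 to 2740 and 564 to 761 within them, and 1328 to 1865 for wild-type CD4 against CD8 SP cells. The fate comparisons ran 0 to 3, 2 to 142, 3 to 25 and 1113 to 1759 genes, the OT comparisons 0 to 4, 0 to 1, 0 and 0 to 5, and the transgenic comparisons 9 to 169, 438 to 1144, 31 to 65, 29 to 279 and 68 to 311. CD25- against CD25+ DN cells could not be fitted without 1 of the 2 mice.

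*Notch1* from CD69+ to CD69- CD4 SP cells passed with no filter on low counts (0.048), DESeq2 size factors (0.0497), doublets kept (0.046) and at least 30 cells (0.049), all edgeR adjusted p. No called result turned its direction. Uncalled log2 differences that did were *Dtx1* at CD69+ DP without the mouse block (-0.36), *Notch1* in wild-type CD4 against CD8 SP with DESeq2 (0.015) and no filter (0.0073), and *Dtx1* by fate in CD4+CD8lo with raised thresholds (-0.020) and in SP cells with lowered thresholds (0.070), no family covariate (0.15) and the replicate block (0.0020). For OT mice in DN TCRβ- cells, *Notch1* turned to 0.23 and *Ptcra* to 0.32 with lowered thresholds, and *Notch1*, *Notch3* and *Ptcra* to 0.26, 0.017 and 0.43 with at least 30 cells. For transgenic mice, *Notch1* in CD71+ DP turned to 0.0059 with lowered thresholds and 0.46 without the experiment covariate, and *Notch3* in CD71-CD69- DP to 0.0041 with raised thresholds and 0.89 without that covariate. The Notch1 antibody in CD4 against CD8 SP cells turned to -0.075 with library size scaling and -0.10 without the gate antibodies. Leaving out 1 mouse, ranges that crossed 0 were, by fate, *Dtx1* -0.16 to 0.38, *Notch1* -0.046 to 0.36 and *Ptcra* -0.078 to 0.89 in CD71-CD69- DP, *Notch1* -0.000404 to 0.26 in CD69+ DP, *Dtx1* -0.28 to 0.71 in CD4+CD8lo and *Dtx1* -0.34 to 0.18 in SP cells. For OT mice they were *Hes1* -1.40 to 0.49, *Notch1* -0.55 to 0.12, *Notch3* -1.29 to 0.11 and *Ptcra* -1.20 to 0.044 in DN TCRβ-, *Ptcra* -0.26 to 0.74 in CD71+ DP, and *Hes1* -0.10 to 4.24, *Notch3* -0.11 to 1.24 and *Ptcra* -0.43 to 0.44 in CD71-CD69- DP cells. The rest were *Notch1* -0.089 to 0.11 in wild-type CD4 against CD8 SP, *Notch1* -0.26 to 0.18 for transgenic mice in CD71+ DP and *Notch3* -0.50 to 0.27 in CD71-CD69- DP cells.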
